A study of Mus musculus with 6 samples.

Results

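Transcripts of 39 interferon response genes were followed in KVTR cells with and without dopamine. The genes were taken by symbol from a named list of type I and type II interferon response genes, and all 39 were found among the 56691 genes of the deposited count table. Of these, 38 had enough counts to be tested, within 15420 genes tested in all. KVTR is listed as a mouse cell line and described as primary clear cell renal carcinoma cells, from a kidney cancer of tubule epithelium. Cells given dopamine, a catecholamine transmitter (3 libraries, numbered 1 to 3), were set against cells labelled blank (3 libraries, called blank 2, blank 3 and the unnumbered blank). The labels also number the blank samples 1 to 3, but no count column is headed blank 1. Whether the unnumbered column is that sample is not stated. The series title ties dopamine signalling to checkpoint inhibitor resistance, and the comparison asks how transcript levels differ with dopamine. The labels name no dose, duration or genetic background, and do not say what the blank cells received. RNA was amplified as full-length cDNA and sequenced in pairs without strand marking, to 16771499 to 23375622 counts per library. Whether each library had its own culture is not stated, so a p-value here weighs a difference against spread between libraries that may be technical.

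Interferons are secreted antiviral cytokines. Type I interferons bind the Ifnar1 and Ifnar2 receptor, and kinases of the JAK family then phosphorylate transcription factors, Stat2 among them, which join Irf9 and bind the interferon-stimulated response element in promoters. Type II interferon binds Ifngr1 and Ifngr2 and acts mainly at gamma-activated sites. The genes they induce encode sensors of foreign nucleic acid, inhibitors of viral replication, guanylate-binding and immunity-related GTPases that act on pathogen vacuoles, and modifiers related to ubiquitin.

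Promoters of 7 of the genes are shown as examples that carry, or lack, the letters at the core of those 2 elements, and were picked after the search. RefSeq promoters (build GRCm38.p6) matched 28 of the 39 genes. The 250 bases before each listed start were searched for GAAANNGAAA, the core of the interferon-stimulated response element, on both strands, and for TTCNNNGAA, a palindromic pattern at the core of gamma-activated sites. Matches could overlap each other, as in Isg15 and Gbp3. Each sequence starts 160 bases before the RefSeq start and runs to the base before it, 5′ to 3′ on the gene's strand, with bases that belong to a match in capitals. Where a GENCODE transcript of the gene already covers the last bases, these are left out, 18 in Ifit1, 18 in Gbp3 and 57 in Irf7.
Ifit1: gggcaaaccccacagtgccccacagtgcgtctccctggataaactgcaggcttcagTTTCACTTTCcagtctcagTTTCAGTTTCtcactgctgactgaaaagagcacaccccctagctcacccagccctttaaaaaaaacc
Ifit3: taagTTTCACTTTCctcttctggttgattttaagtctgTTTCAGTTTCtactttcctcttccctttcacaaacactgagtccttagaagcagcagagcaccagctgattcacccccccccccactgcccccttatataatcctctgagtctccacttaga
Isg15: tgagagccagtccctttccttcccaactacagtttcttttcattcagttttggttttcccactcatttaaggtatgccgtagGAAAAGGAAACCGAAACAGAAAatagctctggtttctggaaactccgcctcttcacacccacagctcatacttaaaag
Gbp3: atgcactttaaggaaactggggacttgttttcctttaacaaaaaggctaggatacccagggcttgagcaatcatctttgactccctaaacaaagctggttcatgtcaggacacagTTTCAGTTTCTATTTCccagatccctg
Igtp: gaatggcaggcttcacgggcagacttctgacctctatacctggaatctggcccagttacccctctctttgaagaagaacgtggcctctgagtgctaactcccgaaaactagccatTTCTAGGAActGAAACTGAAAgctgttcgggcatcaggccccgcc
Irf1: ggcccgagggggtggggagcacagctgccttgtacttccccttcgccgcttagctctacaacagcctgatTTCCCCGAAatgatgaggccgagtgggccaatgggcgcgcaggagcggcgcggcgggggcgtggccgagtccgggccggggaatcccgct
Irf7: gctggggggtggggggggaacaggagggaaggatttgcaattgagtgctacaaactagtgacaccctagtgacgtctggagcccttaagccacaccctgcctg
Ifit1 lies at chr19:34640729-34640870 (plus strand), Ifit3 at chr19:34583369-34583528 (plus), Isg15 at chr4:156200819-156200978 (minus) and Gbp3 at chr3:142559884-142560025 (plus). Igtp lies at chr11:58199396-58199555 (plus), Irf1 at chr11:53769854-53770013 (plus) and Irf7 at chr7:141266482-141266584 (minus). GAAANNGAAA was matched 2 times in Ifit1, Ifit3 and Gbp3, 3 times in Isg15 and 1 time in Igtp. TTCNNNGAA was matched 1 time in Igtp and 1 time in Irf1, and neither pattern was found in Irf7.

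Over the genes with a promoter, GAAANNGAAA was present in 13 of 28 (46.4%), against 3.46% of 27025 mouse genes searched in the same way. The 13 were Ifit1, Ifit3, Isg15, Oas1a, Rsad2, Stat2, Bst2, Cxcl10, Gbp2, Gbp3, Gbp7, Igtp and Irgm1. TTCNNNGAA was present in 8 of 28 (28.6%), against 8.13% of all genes searched, in Ifit2, Oas1a, Irf1, Bst2, Gbp7, Igtp, Eif2ak2 and Samhd1. A match describes letters in a window and is not evidence of a bound site.

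The unnumbered blank stood apart in markers of dividing cells, which summed to 453 CPM (a gene's count as a share of the TMM-scaled library total) there and to 28.9 to 51.8 CPM in the other 5 libraries. The median change of the response genes is therefore also given with each library left out.

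No interferon response gene differed between dopamine and blank libraries beyond the spread between libraries. With edgeR's quasi-likelihood test and Benjamini-Hochberg adjustment over all genes tested, 0 of the 38 were called, as were 0% of all 15420 genes. At an unadjusted p under 0.05, 0 of the 38 passed, against 2.94% of all genes. DESeq2 called 0 of the 38 (0.13% of all genes), with 1 under an unadjusted 0.05 (4.21% of all genes), and limma called 0 of the 36 it could test (0%), with 0 under an unadjusted 0.05 (2.38%). The 3 dopamine and 3 blank values overlapped for every one of the 38 genes, whereas they did not overlap for 8.48% of all genes. Log2 fold changes, dopamine over blank, were above 0 for 24 of the 38 and below 0 for 14, where 51.7% of all genes were above 0. The count above 0 ran from 7 of the 38 without dopamine 3 to 33 without dopamine 1, and was 16 without blank 3. Their median was 0.13, against 0.01 for all genes, and they ran from -1.18 for Oas2 to 1.74 for Mx1. Every adjusted p of these genes was 0.9997.

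The spread within each group was wide. The median standard error of the log2 fold changes was 0.78, against 0.35 over all genes. The 95% interval lay within a 2-fold change in either direction for 3 of the 38, Eif2ak2, Adar and Samhd1, against 46.2% of all genes. For the other 35 genes a 2-fold difference in at least 1 direction lay inside the interval. The median also turned on single libraries: it was 0.53 without dopamine 1, 0.09 without dopamine 2, -0.31 without dopamine 3, 0.42 without blank 2, -0.17 without blank 3 and 0.25 without the unnumbered blank.

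**Figure D1:**
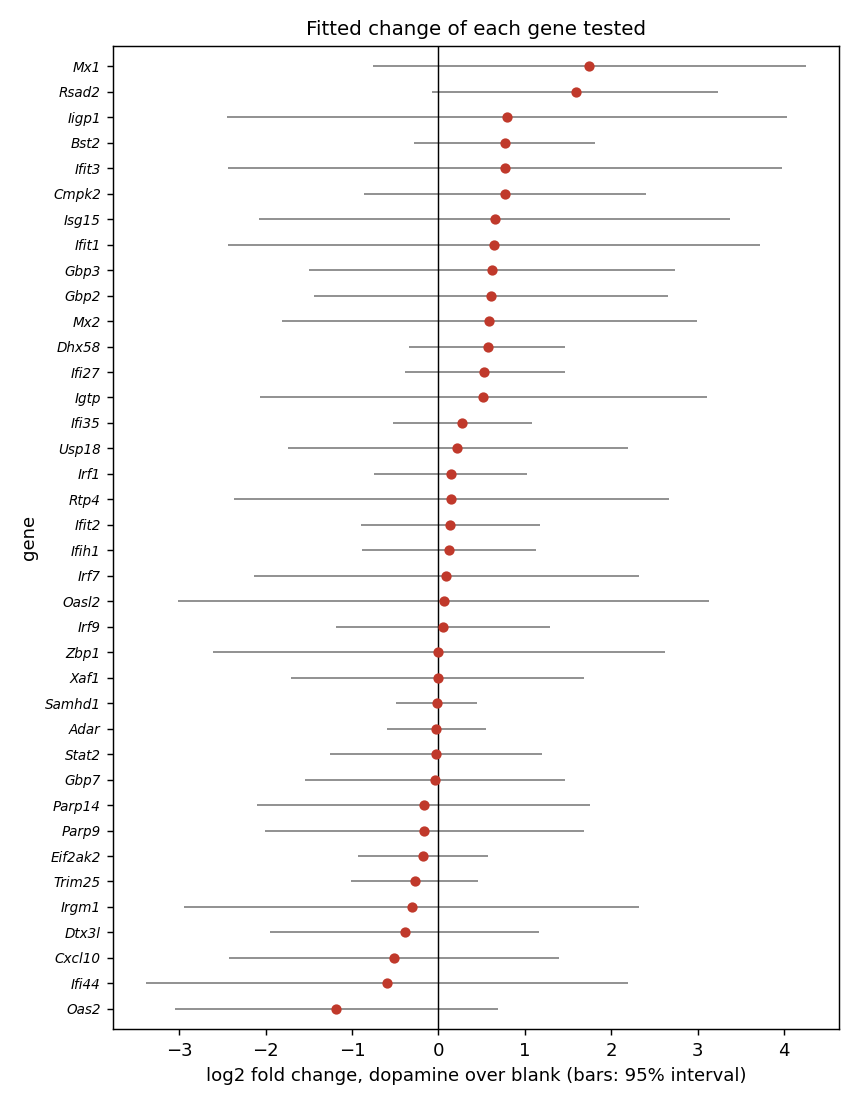
Log2 fold change of each of the 38 tested genes, dopamine over blank (horizontal axis), ordered by value, with the fitted value as a point and its 95% interval as a bar. Every interval spans 0, and those of Samhd1, Adar and Eif2ak2 are among the shortest.

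What varied was the level from library to library, inside both groups. The mean over the 38 genes of log2 CPM, each taken relative to that gene's mean over the 6 libraries, was -1.38, 0.46 and 1.20 in dopamine 1, 2 and 3, against 0.82, -1.41 and 0.32 in blank 2, in blank 3 and in the unnumbered blank. One library of each group was thus low, dopamine 1 and blank 3, and the group means were 0.09 ± 1.33 for dopamine and -0.09 ± 1.17 for blank (SD, n = 3 each). Dopamine 1 and blank 3 were the lowest 2 libraries for 32 of the 38 genes (84.2%), against 12.6% of all genes tested, a count made after the values were seen. The exceptions were Oas2, Rsad2, Irf1, Ifi27, Trim25 and Samhd1. The highest library was dopamine 3 for 28 genes, the unnumbered blank for 5, blank 2 for 4 and dopamine 2 for 1.

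Summed over the 39 genes, CPM came to 873, 2550.0 and 3999 in dopamine 1, 2 and 3, against 3138, 911 and 2161 in blank 2, in blank 3 and in the unnumbered blank. The range over libraries exceeded 4-fold for 25 of the 38 genes (20.3% of all genes tested) and 10-fold for 16 (6.42% of all). A median of 1.51% of each gene's variance in log2 CPM lay between the 2 groups, against 9.69% over all genes. In these bulk libraries, fewer cells with the transcripts and less RNA per cell cannot be told apart.

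**Figure D2:**
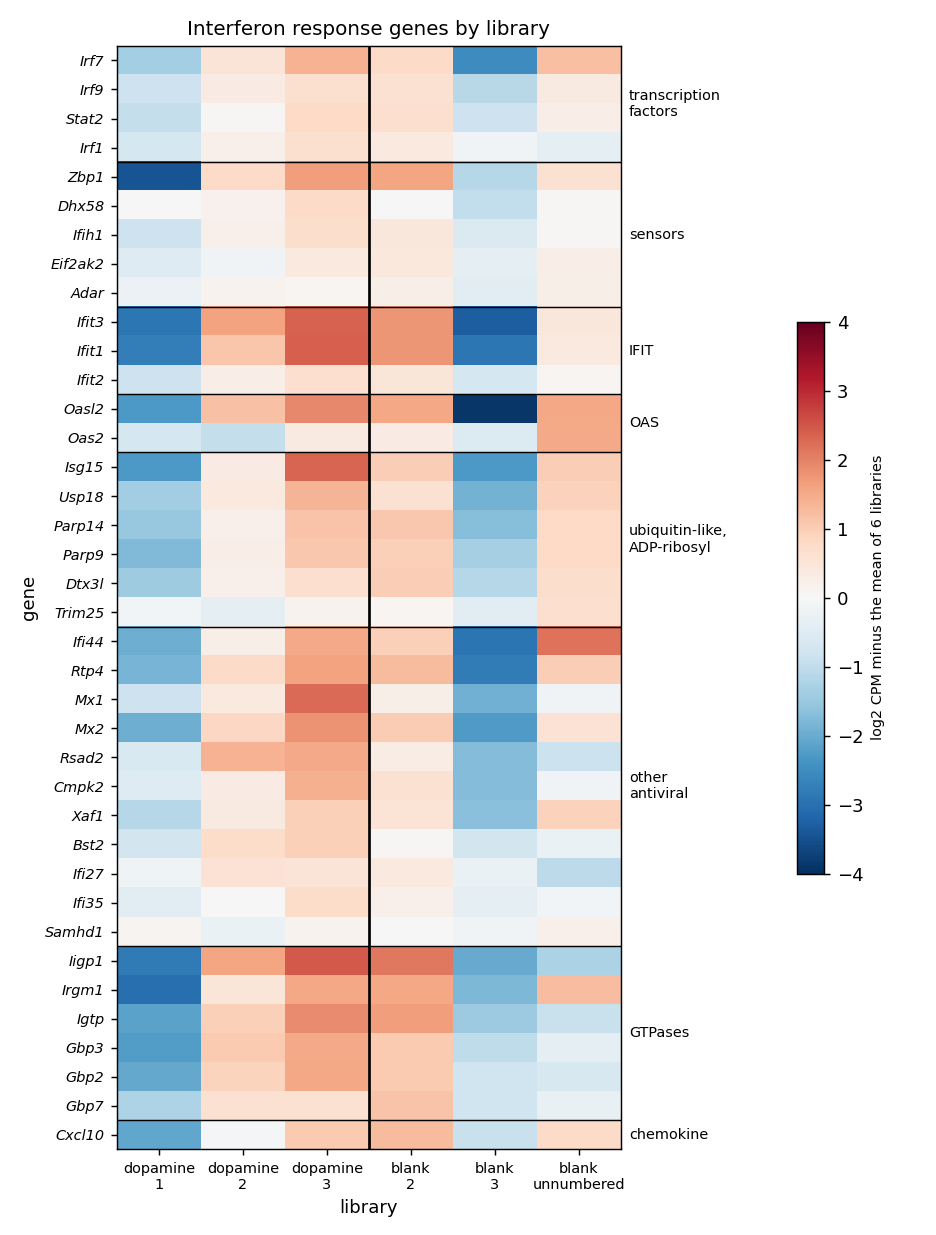
Log2 CPM of each tested gene (vertical axis, grouped by role) minus its mean over the 6 libraries, in each library (horizontal axis). Red is above the gene's mean and blue below it. Dopamine 1 and blank 3 are blue in nearly every line, while Samhd1, Trim25 and Adar are pale throughout.

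Pairs of libraries showed how far a comparison depended on which libraries were set against each other. Dopamine 3 was above blank 3 in 38 of the 38 genes, with a median log2 difference of 2.47, and dopamine 2 was above blank 3 in 36, with a median of 1.78. Dopamine 1 was above blank 2 in 1 of the 38, with a median of -2.06, and above the unnumbered blank in 2, with a median of -1.48. Dopamine 1 and blank 3 stood close together, with 19 of the 38 higher in dopamine 1 and a median of 0.05. Within groups, dopamine 1 was below dopamine 3 in all 38 genes, with a median log2 difference (dopamine 1 minus dopamine 3) of -2.41, and blank 2 was above blank 3 in all 38, with a median (blank 2 minus blank 3) of 2.12. Over all genes tested, the medians of the same differences lay between -0.03 and 0.03.

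Of the transcription factors of the response, Irf7, Irf9 and Stat2 followed this order, with dopamine 1 and blank 3 lowest, and Irf1 did not. In what follows, CPM values are listed for dopamine 1, 2 and 3, against blank 2, blank 3 and the unnumbered blank. Irf7, which amplifies type I interferon production, had 8.20, 29.8 and 55.8 CPM in the dopamine libraries, against 35.8, 3.63 and 48.9 CPM in the blank libraries, with a log2 fold change of 0.09 ± 0.94 (± SE, as for the fold changes that follow). Its level was 15.4 times as high in the highest library, dopamine 3, as in the lowest, blank 3. Irf9, a DNA-binding partner of Stat2, had 22.3, 49.8 and 62.0 CPM in the dopamine libraries, against 60.3, 18.1 and 51.2 CPM in the blank libraries (0.05 ± 0.52 on the log2 scale). Stat2 had 31.2, 62.9 and 106 CPM in the dopamine libraries, against 97.6, 34.3 and 72.2 CPM in the blank libraries (-0.03 ± 0.52). Both were lowest in dopamine 1 and blank 3, and the groups overlapped. Irf1, an early target of type II interferon, had 24.7, 46.4 and 62.8 CPM in the dopamine libraries, against 53.5, 36.6 and 31.0 CPM in the blank libraries (0.15 ± 0.37), with the unnumbered blank, not blank 3, as its lowest blank library.

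The genes whose products sense nucleic acid included both a steep member and some of the flattest. Zbp1, a sensor of Z-form nucleic acid, had 0.688, 14.5 and 27.2 CPM in the dopamine libraries, against 25.5, 3.85 and 13.0 CPM in the blank libraries, a range of 39.5 times, and a log2 fold change of 0.00 ± 1.11. Ifih1 (MDA5), a sensor of long double-stranded RNA, had 21.9, 45.2 and 62.9 CPM in the dopamine libraries, against 53.2, 26.2 and 39.9 CPM in the blank libraries (0.12 ± 0.42). Dhx58 (LGP2), a regulator of such sensors, had 9.97, 11.2 and 16.9 CPM in the dopamine libraries, against 10.2, 5.02 and 10.5 CPM in the blank libraries (0.57 ± 0.38). Zbp1 was barely present in dopamine 1, whereas Ifih1 and Dhx58 differed little between libraries by comparison. Eif2ak2 (PKR), a kinase that blocks translation on binding double-stranded RNA, had 105, 139 and 198 CPM in the dopamine libraries, against 202, 115 and 184 CPM in the blank libraries (-0.18 ± 0.32). Adar, which edits adenosine to inosine in double-stranded RNA, had 58.1, 75.5 and 71.3 CPM in the dopamine libraries, against 79.3, 49.3 and 80.1 CPM in the blank libraries (-0.03 ± 0.24). The highest library exceeded the lowest 1.92 times for Eif2ak2 and 1.62 times for Adar, and groups overlapped for both.

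The IFIT genes, whose products bind viral RNA and hold back its translation, lie in 1 cluster on chromosome 19, with Ifit3b between Ifit3 and Ifit1 (GRCm39; Ifit2 34528094 to 34553819, Ifit3 34560931 to 34566131, Ifit1 34618271 to 34627409). Ifit1 had 8.25, 123 and 295 CPM in the dopamine libraries, against 193, 7.59 and 73.5 CPM in the blank libraries, with a log2 fold change of 0.64 ± 1.30. Ifit3 had 9.69, 219.6 and 372 CPM in the dopamine libraries, against 247, 7.16 and 98.9 CPM in the blank libraries (0.77 ± 1.36). Ifit2 had 36.1, 77.9 and 103 CPM in the dopamine libraries, against 88.8, 39.2 and 68.3 CPM in the blank libraries (0.14 ± 0.44). Ifit1 and Ifit3 were thus near 10 CPM or under it in dopamine 1 and blank 3, and 38.9 and 51.9 times as high in their highest library, while the neighbour Ifit2 kept a much narrower range. Ifit3 has a near-identical copy, Ifit3b, with which reads may be shared, so its level is uncertain to that extent.

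The OAS genes encode enzymes, or relatives of enzymes, that sense double-stranded RNA and set off RNA decay. Oasl2 had 6.08, 67.4 and 114 CPM in the dopamine libraries, against 89.2, 1.92 and 88.4 CPM in the blank libraries, the widest range of all 38 genes at 59.2 times, with a log2 fold change of 0.06 ± 1.30. Oas2 stayed near the detection limit at 0.229, 0.177 and 0.591 CPM in the dopamine libraries, against 0.579, 0.267 and 1.44 CPM in the blank libraries (-1.18 ± 0.79), where 3 counts are worth 0.1283 to 0.1789 CPM. Oas1a was not tested: 1 count was found, in blank 3. Oas1a has close paralogs, and a count of 0 in the other 5 libraries allows up to 3 counts in each.

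**Figure D3:**
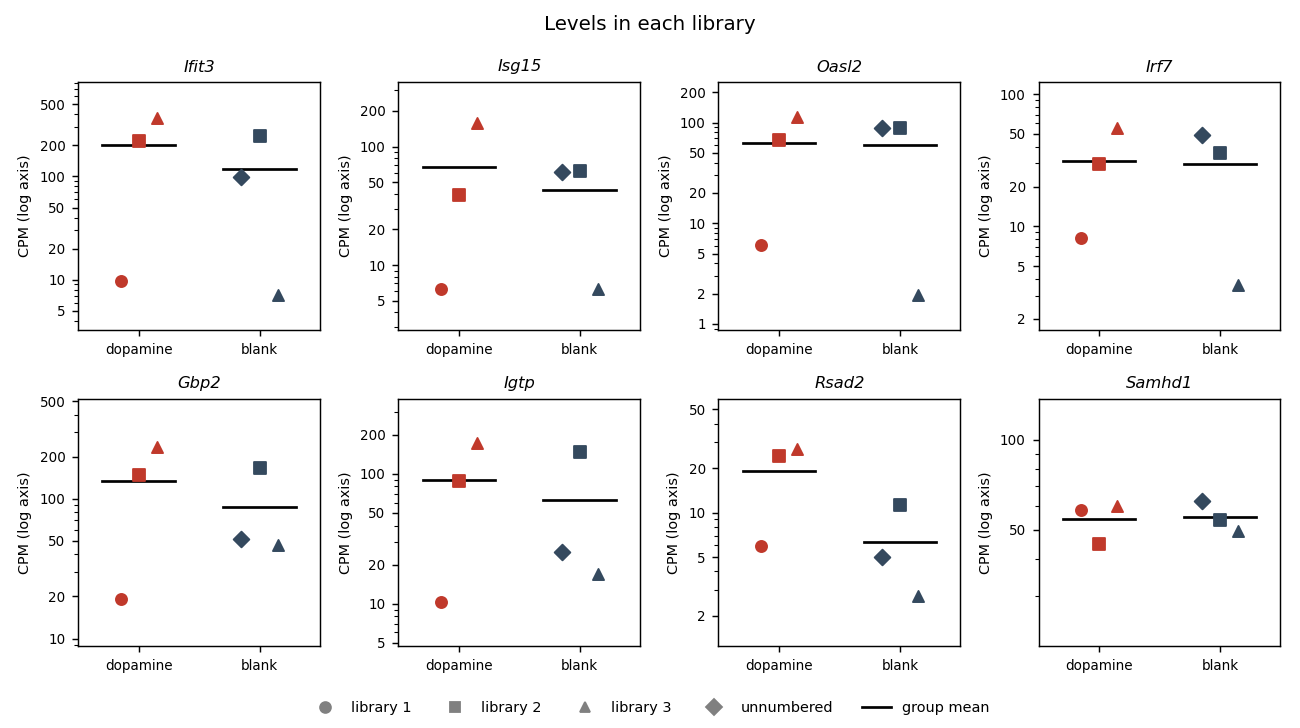
CPM of 8 of the genes (log axes) in dopamine libraries (red) and blank libraries (dark blue). Symbols mark the library and lines the group mean. In 6 of the panels dopamine 1 and blank 3 lie lowest, in Rsad2 the lowest are blank 3 and the unnumbered blank, and in Samhd1 all 6 libraries lie between 44.8 and 62.4 CPM.

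Isg15 is a ubiquitin-like protein that is joined to other proteins, and Usp18 removes it and also restrains the type I receptor. Isg15 had 6.25, 39.2 and 158 CPM in the dopamine libraries, against 62.2, 6.31 and 61.3 CPM in the blank libraries, with a log2 fold change of 0.65 ± 1.15, and its highest library was 25.3 times its lowest. Usp18 had 19.3, 66.9 and 132 CPM in the dopamine libraries, against 77.7, 13.5 and 95.6 CPM in the blank libraries (0.22 ± 0.83). For Usp18 the highest library was 9.76 times the lowest, dopamine 3 over blank 3. Trim25, a ubiquitin ligase of the RIG-I route, differed from that order, with 60.6, 50.5 and 71.3 CPM in the dopamine libraries, against 68.7, 47.3 and 104 CPM in the blank libraries (-0.27 ± 0.31) and its highest value in the unnumbered blank.

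Parp14 and Parp9 belong to the ADP-ribosyltransferase family, and Dtx3l is the ubiquitin ligase partner of Parp9. They lie together on chromosome 16 (GRCm39; Parp14 35653244 to 35691914, Dtx3l 35746881 to 35759521, Parp9 35758840 to 35792975). Parp14 had 8.94, 29.96 and 57.1 CPM in the dopamine libraries, against 54.8, 7.91 and 45.4 CPM in the blank libraries (-0.17 ± 0.82 on the log2 scale). Parp9 had 7.68, 31.7 and 55.2 CPM in the dopamine libraries, against 50.7, 10.3 and 45.3 CPM in the blank libraries (-0.17 ± 0.78). Dtx3l had 8.43, 26.2 and 36.0 CPM in the dopamine libraries, against 45.3, 10.4 and 37.2 CPM in the blank libraries (-0.39 ± 0.66). The 3 neighbours shared 1 pattern, with dopamine 1 and blank 3 low and the other 4 libraries higher. Dtx3l and Parp9 overlap on opposite strands, so reads from the overlap cannot be assigned by strand.

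Among the other antiviral effectors, Rsad2 (viperin, which makes a chain-terminating nucleotide) came nearest to the threshold. Rsad2 had 5.96, 24.2 and 26.8 CPM in the dopamine libraries, against 11.3, 2.73 and 4.99 CPM in the blank libraries, with a log2 fold change of 1.59 ± 0.70 and a 95% interval of -0.07 to 3.24. The unadjusted p was 0.0580 with edgeR's quasi-likelihood test and 0.0231 with DESeq2, and neither passed adjustment over all genes. Dopamine 2 and dopamine 3 were above all blank libraries, while dopamine 1 lay between blank 2 and the unnumbered blank. Cmpk2, a nucleotide kinase gene, is its neighbour on chromosome 12 (GRCm39; Rsad2 26492745 to 26506451, Cmpk2 26519203 to 26529836). Cmpk2 had 7.16, 13.0 and 28.0 CPM in the dopamine libraries, against 15.9, 3.05 and 9.30 CPM in the blank libraries (0.77 ± 0.69).

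Bst2 (tetherin, which holds budding virus at the cell surface) had 81.7, 228 and 263 CPM in the dopamine libraries, against 141, 82.0 and 113 CPM in the blank libraries, with a log2 fold change of 0.77 ± 0.44 and an unadjusted p of 0.127 with edgeR's quasi-likelihood test. Its dopamine 2 and 3 values were the highest, and its dopamine 1 value was level with blank 3. Mx2, a dynamin-like GTPase, had 2.35, 16.7 and 32.7 CPM in the dopamine libraries, against 18.7, 1.87 and 13.9 CPM in the blank libraries (0.59 ± 1.01), and its partner Mx1 was nearly absent at 4, 15 and 59 counts in the dopamine libraries, against 10, 1 and 9 counts in the blank libraries (1.74 ± 1.06). The large fitted change of Mx1 rests mainly on the 59 counts of dopamine 3. Samhd1, which breaks down deoxynucleotides, had 58.2, 44.8 and 59.99 CPM in the dopamine libraries, against 54.0, 49.4 and 62.4 CPM in the blank libraries (-0.02 ± 0.20), and its highest library was 1.39 times its lowest.

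The remaining effectors include genes whose functions are less settled. Rtp4, a receptor transporter protein, had 6.99, 44.1 and 78.7 CPM in the dopamine libraries, against 62.3, 3.63 and 51.3 CPM in the blank libraries (0.15 ± 1.06). Ifi44 had 6.88, 31.9 and 78.3 CPM in the dopamine libraries, against 52.2, 3.47 and 121 CPM in the blank libraries (-0.59 ± 1.18). Xaf1, which binds an inhibitor of apoptosis, had 10.03, 28.4 and 43.3 CPM in the dopamine libraries, against 33.0, 7.00 and 42.4 CPM in the blank libraries (-0.01 ± 0.72). All 3 were lowest in blank 3 and next lowest in dopamine 1, and Ifi44 was highest in the unnumbered blank. Ifi35 had 23.2, 32.7 and 53.4 CPM in the dopamine libraries, against 36.6, 24.2 and 29.6 CPM in the blank libraries (0.27 ± 0.34). Ifi27 had 136, 231 and 216 CPM in the dopamine libraries, against 202, 127 and 74.4 CPM in the blank libraries (0.53 ± 0.39). Ifi35 was lowest in dopamine 1 and blank 3, with its highest library 2.31 times its lowest, and Ifi27 was lowest in the unnumbered blank.

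The guanylate-binding and immunity-related GTPases, strongly induced by type II interferon, had their lowest library in dopamine 1 for all 6 genes. Gbp7, Gbp3 and Gbp2 lie in 1 cluster on chromosome 3 (GRCm39; 142236103 to 142255910, 142265787 to 142278970 and 142326363 to 142343769). Gbp2 had 19.3, 148 and 236 CPM in the dopamine libraries, against 166, 46.5 and 51.6 CPM in the blank libraries, with a log2 fold change of 0.61 ± 0.87. Gbp3 had 17.4, 169 and 235 CPM in the dopamine libraries, against 171, 40.5 and 63.8 CPM in the blank libraries (0.62 ± 0.90). Gbp7 had 19.0, 69.1 and 68.1 CPM in the dopamine libraries, against 98.7, 25.8 and 36.2 CPM in the blank libraries (-0.04 ± 0.64). For these 3 genes the unnumbered blank lay near blank 3, not near blank 2. Igtp had 10.3, 88.9 and 172 CPM in the dopamine libraries, against 148, 16.8 and 24.8 CPM in the blank libraries (0.52 ± 1.09). Iigp1 had 2.24, 49.2 and 90.01 CPM in the dopamine libraries, against 71.2, 4.01 and 6.76 CPM in the blank libraries (0.79 ± 1.37). Both showed the same low unnumbered blank. Irgm1 had 9.69, 112 and 235 CPM in the dopamine libraries, against 233, 23.0 and 186 CPM in the blank libraries (-0.31 ± 1.11), and its unnumbered blank lay close to dopamine 3 and blank 2. Paralogs in the Gbp and Irg clusters can share reads, and Igtp overlaps Irgm2, so these levels are uncertain where reads are ambiguous.

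The mean deviation of the 6 GTPase genes (log2 CPM relative to the 6-library mean) was -2.26, 0.92 and 1.59 in dopamine 1, 2 and 3, against 1.43, -1.31 and -0.38 in blank 2, in blank 3 and in the unnumbered blank. For the other tested genes of the list it was -1.22, 0.37 and 1.12 in the dopamine libraries, against 0.70, -1.43 and 0.45 in the blank libraries. The GTPase mean minus that of the rest came to -1.03 in dopamine 1 and -0.83 in the unnumbered blank, and to 0.12 to 0.72 in the other 4 libraries. Cxcl10, a chemokine that draws T cells, had 2.64, 10.9 and 24.1 CPM in the dopamine libraries, against 27.7, 6.25 and 19.7 CPM in the blank libraries (-0.51 ± 0.81), highest in blank 2 and lowest in dopamine 1.

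Per length, as the mean over 6 libraries of FPKM (the count scaled by the TMM-scaled library total and by exonic length), Bst2 stood highest among the 39 at 168 FPKM, ahead of Ifi27 at 112 FPKM, Ifit3 at 91.1 FPKM and Isg15 at 79.0 FPKM. Gbp2 at 44.2 FPKM and Ifit1 at 44.0 FPKM came next, and Oas2 was at 0.123 FPKM. Since Ifit3 ran from 4.10 to 213 FPKM over the libraries and Ifit1 from 2.86 to 111 FPKM, neighbours in this order are not set apart by their means.

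The range over libraries also differed with the promoter letters. It was a median of 3.67 log2 units in the 12 tested genes with GAAANNGAAA and 1.52 in the 15 without. For TTCNNNGAA it was 1.51 in the 7 tested genes with the pattern and 3.29 in the 20 without. These medians are given as descriptions with no test, and genes without a listed promoter are in none of them. Genes with neither pattern ranged both widely and narrowly. Oasl2, the widest of all 38 genes, ranged over 5.82 log2 units, Ifi44 over 5.08 and Irf7 over 3.90. Trim25 ranged over 1.14 and Adar over 0.70.

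A list of 80 further interferon pathway genes also held no gene called between dopamine and blank. Of these, 64 were tested and 0 were called by edgeR's quasi-likelihood test or by DESeq2, with 1 and 3 genes under an unadjusted p of 0.05 (2.94% and 4.21% of all genes tested). The 1 gene with edgeR was Jak2, a kinase of the type II receptor, with 50.6, 54.8 and 51.7 CPM in the dopamine libraries, against 78.9, 60.2 and 73.3 CPM in the blank libraries and a log2 fold change of -0.44 ± 0.18 (unadjusted p 0.0448). All 3 dopamine values of Jak2 lay below the blank values, and the groups did not overlap for 7.81% of the 64, against 8.48% of all genes. Log2 fold changes were above 0 for 38 of the 64 and below 0 for 26, with a median of 0.15.

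The interferon genes themselves were almost unseen. None of 10 ligand genes had enough counts to be tested, all were under 1 CPM in every library, and 7 were at 0 in all 6, which allows up to 3 counts per library. Ifnb1 had 5 counts in blank 2 and 4 in the unnumbered blank, and 0 in the dopamine libraries and in blank 3. Ifng had 1 count, in dopamine 3, and Ifne had 2, in blank 3.

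The 6 receptor genes tested were present in every library, and dopamine 1 and blank 3 were the lowest 2 libraries for 2 of them. Ifnar1 had 111, 83.7 and 73.5 CPM in the dopamine libraries, against 93.4, 90.3 and 87.5 CPM in the blank libraries, and Ifnar2 had 31.1, 59.5 and 53.4 CPM in the dopamine libraries, against 50.7, 33.0 and 36.3 CPM in the blank libraries. Ifngr1 had 68.8, 71.1 and 61.8 CPM in the dopamine libraries, against 69.6, 59.3 and 35.3 CPM in the blank libraries, and Ifngr2 had 35.4, 66.3 and 54.8 CPM in the dopamine libraries, against 63.5, 50.6 and 79.8 CPM in the blank libraries. Ifnar1 was highest in dopamine 1, where the response genes were low, whereas Ifnar2 was lowest in dopamine 1 and blank 3. The mean deviation of the 6 receptor genes tested was -0.12, 0.32 and 0.05 in dopamine 1, 2 and 3, against 0.23, -0.07 and -0.40 in blank 2, in blank 3 and in the unnumbered blank.

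Ddx58 (RIG-I), a sensor of viral RNA ends, had 45.7, 98.4 and 133 CPM in the dopamine libraries, against 136, 43.0 and 118 CPM in the blank libraries. Tlr3, a sensor of double-stranded RNA in endosomes, had 22.5, 66.8 and 75.2 CPM in the dopamine libraries, against 81.5, 26.6 and 24.2 CPM in the blank libraries. Ddx58 was low in dopamine 1 and blank 3, and Tlr3 was low in the unnumbered blank as well. The 35 tested genes of the list's interferon-induced group had mean deviations of -1.48, 0.53 and 1.20 in the dopamine libraries, against 0.85, -1.29 and 0.19 in the blank libraries. In 25 of the 35, dopamine 1 and blank 3 were the lowest 2 libraries. The 7 negative regulators tested lay close to 0 on average, with mean deviations of 0.02, -0.01 and 0.13 in the dopamine libraries, against 0.03, 0.10 and -0.28 in the blank libraries. Members went opposite ways within that mean: in dopamine 1 the deviation was 0.86 for Ptpn1 and 0.79 for Socs3, and -1.18 for Ptpn6 and -0.59 for Ptpn2.

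**Figure D4:**
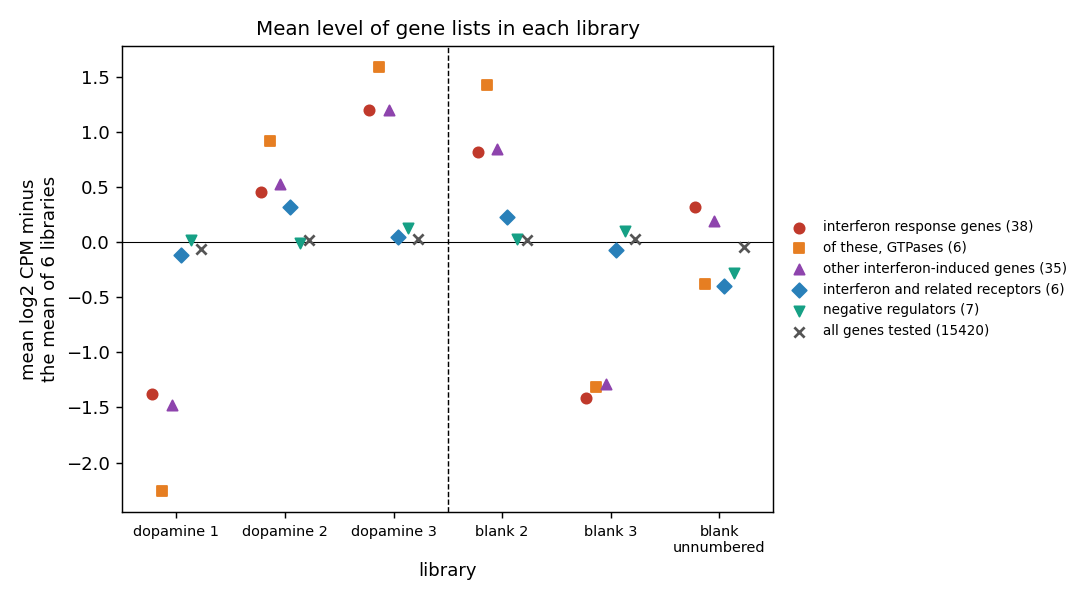
Mean log2 CPM relative to the 6-library mean (vertical axis) for lists of genes in each library (horizontal axis), with dopamine libraries left of the dashed line and blank libraries right of it. The interferon response genes and the further interferon-induced genes lie close to each other, at -1.38 and -1.48 in dopamine 1 and -1.41 and -1.29 in blank 3, while the means of receptors, negative regulators and all genes lie between -0.40 and 0.32.

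Among 2644 other genes that ranged over at least 2 log2 units, the 10 whose log2 CPM over the 6 libraries was most like the mean of the response genes were found by Pearson's r. They included Psmb8 (r = 0.996), Slc26a1 (0.995), Ccl9 (0.992), Gbp9 (0.991), Acot6 (0.989), Tapbpl (0.986), H2-T24 (0.986), Slfn8 (0.986) and Ifit3b (0.983). Psmb8, a subunit of the immunoproteasome, had 12.1, 36.5 and 58.3 CPM in the dopamine libraries, against 42.2, 9.89 and 32.2 CPM in the blank libraries. Slc26a1, Ccl9 and H2-T24 rested on few counts in dopamine 1 and blank 3, at 0.160 to 0.287 CPM, near the detection limit. An r of at least 0.9 was reached by 98 of those genes, by 2.68% of all genes tested and by 25 of the 38 response genes, which themselves make up the mean. The lowest r among the 38 was 0.15, for Samhd1. The 6 points are the same libraries throughout, so these are descriptions of likeness in level.

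Markers of cell types also moved between libraries. Of 15 renal tubule markers, 5 were under 1 CPM in all libraries. Pax8 did not exceed 1.15 CPM, while Lrp2 ran from 87.1 to 384 CPM, Aqp1 from 14.5 to 116 CPM and Emx2 from 11.4 to 20.1 CPM. The list summed to 452, 196 and 157 CPM in the dopamine libraries, against 189.6, 375 and 234 CPM in the blank libraries. All 10 astrocyte markers had enough counts to be tested, although S100b did not exceed 2.43 CPM and had 2 counts in dopamine 1, and they summed to 1112, 6474 and 5421 CPM in the dopamine libraries, against 7254, 2316 and 1164 CPM in the blank libraries. The libraries thus held some markers of the labelled tubule origin and were at or near 0 for others. The astrocyte sum was low in dopamine 1, as the response genes were, but also in the unnumbered blank, where Gbp2, Gbp3, Gbp7, Igtp and Iigp1 were low and most response genes were not. Of 15 macrophage and microglia markers, 8 were under 1 CPM in all libraries, Ptprc among them at 0.636 CPM or less, and the list summed to 89.1, 184 and 118 CPM in the dopamine libraries, against 89.9, 64.0 and 47.6 CPM in the blank libraries. Dopamine 1 and blank 3 were the lowest 2 libraries for 4 of the 8 tested markers of that list (50%), against 12.6% of all genes tested. Mean deviations of these 8 tested markers were -1.22, 1.02 and 1.09 in the dopamine libraries, against 0.69, -1.42 and -0.16 in the blank libraries. Lyz2 of that list, low in dopamine 1 and blank 3 as the response genes were, had 0.917, 38.3 and 32.9 CPM in the dopamine libraries, against 34.0, 0.588 and 13.2 CPM in the blank libraries. Cd68 did not follow that order, with 84.6, 128 and 62.9 CPM in the dopamine libraries, against 39.5, 55.0 and 19.7 CPM in the blank libraries, nor did Tmem119, with 1.78, 6.50 and 9.69 CPM in the dopamine libraries, against 4.98, 6.84 and 8.24 CPM in the blank libraries. All 8 lymphocyte and NK cell markers were under 1 CPM, at a sum of 0.405 CPM or less. Of 5 plasmacytoid dendritic cell markers, 3 were under 1 CPM in all libraries, with Siglech at 0. The list summed to 213, 421 and 433 CPM in the dopamine libraries, against 344, 199 and 349 CPM in the blank libraries. Its other 2 genes were Bst2, itself a response gene, and Tcf4, at 117 to 236 CPM. Dopamine 1 and blank 3 were the lowest 2 libraries for both. Fibroblast markers summed to 632, 2015 and 2801 CPM in the dopamine libraries, against 2928, 2322 and 1718 CPM in the blank libraries, and endothelial markers to 14.0, 40.1 and 58.4 CPM, against 89.2, 48.6 and 210.1 CPM. Of the 6 endothelial markers, 3 were under 1 CPM in all libraries. Cdh5 alone had 5.45, 35.0 and 52.4 CPM in the dopamine libraries, against 82.7, 37.8 and 206 CPM in the blank libraries. Kdr was lowest in the unnumbered blank, at 2.11 CPM, and Tek was highest in blank 3, at 2.99 CPM. Markers of dividing cells summed to 28.9, 31.9 and 30.7 CPM in the dopamine libraries, against 51.8, 42.6 and 453 CPM in the blank libraries. The part of these cell types in the levels of the response genes was not tested.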

How the data were processed

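Total RNA of KVTR cells was amplified with a SMART-Seq HT kit, built into libraries with a Vazyme kit and read as pairs on a NovaSeq sequencer, per the labels' protocols. Per the file headers, the authors deposited raw counts and FPKM for each library. The build is GRCm39, per the submitters' processing notes. Details of the aligner, counting program, strand setting and annotation were not given in the sources used here. FPKM values were recomputed from the counts and TMM-scaled totals, and 2 FPKM columns, whose headers match no one sample, were left out. The blank column without a number was used as a blank library.

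The counts were fitted with edgeR 4.0.16 in R 4.3.3, using filterByExpr, TMM factors, and the quasi-likelihood test of dopamine against blank with no covariate, 2-sided, on all 15420 genes that passed. Genes were called at an adjusted p (Benjamini-Hochberg) under 0.05. DESeq2 1.42.0 and limma 3.58.1 on log2(FPKM + 1) were alternatives, with FPKM for limma taken on library totals without TMM factors. The edgeR, DESeq2 and limma fits of the 2 groups were tested on simulated data, and the other steps were not. CPM are counts as a share of the TMM-scaled library size, and log2 CPM used a prior count of 2. A count of 0 allows up to 3 counts (0.1283 to 0.1789 CPM, unscaled), and such limits cover counting error only.

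The 39 genes, the pathway list and the marker lists were chosen with earlier results of these data known. Genes with a mean of at least 5 CPM are given by library. Pathway ligands, receptors, JAK and STAT genes and sensors of at least 5 CPM could be named. Ifnb1, Ifng, Ifne, Lyz2, Cd68, Tmem119, Ptprc, S100b, Pax8, Lrp2, Aqp1, Emx2, Ptpn1, Ptpn2, Ptpn6, Socs3, Siglech, Tcf4, Cdh5, Kdr, Tek and Tap1 were named after their values were seen. The symbol Rigi was joined to the table as Ddx58. Gene positions come from the deposited table, and promoters are on GRCm38.p6, so the coordinates of the 2 are not comparable. No promoter is given for 11 of the genes. Some genes of the pathway and marker lists are not reported here.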

Additional observations from a re-analysis of the deposited data

How the results depend on the processing

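With 3 libraries a group, no difference in these genes went beyond the spread. The biological coefficient of variation, fitted in common to all genes tested, was 0.427. The SD of log2 CPM over the 6 libraries was a median of 1.26 for the response genes, against 0.41 for all genes tested. None of the response genes and none of the further pathway genes tested was called under any of the 14 alternatives, and the smallest adjusted p of a response gene was 0.545. Over all genes, DESeq2 called 20 where edgeR called 0, and the other alternatives called 0. The median log2 fold change was 0.12 with DESeq2's size factors in edgeR, 0.07 with total counts, 0.11 with no filter, 0.13 with at least 10 counts in 3 libraries, 0.12 with DESeq2 and 0.09 with limma, and -0.31 to 0.53 with 1 library left out. Library means of the genes kept their sign under all 4 settings tried.

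Same-numbered libraries did not deviate together (r = -0.0886 over 15420 genes, one value for numbers 2 and 3, whose deviations mirror each other). These 4 libraries are too few to decide whether the numbers pair libraries, and the main fit used no pairing. With the replicate block on the 4 libraries numbered 2 and 3, the median was 1.02, and without the block on the same 4 it was 0.59, with 37 of the 38 genes above 0 in each. With the block, log2 fold changes of the opposite sign were 0.49 for Stat2, 1.18 for Xaf1, 0.28 for Cxcl10, 0.43 for Gbp7, 1.13 for Irgm1, 1.77 for Ifi44, 0.07 for Trim25, 0.85 for Parp9, 0.95 for Parp14, 0.48 for Dtx3l, 0.12 for Eif2ak2, 0.23 for Adar and 0.00 for Samhd1. Without it on those 4 they were 0.36 for Stat2, 0.84 for Xaf1, 0.05 for Cxcl10, 0.14 for Gbp7, 0.44 for Irgm1, 0.98 for Ifi44, 0.07 for Trim25, 0.51 for Parp9, 0.47 for Parp14, 0.16 for Dtx3l, 0.09 for Eif2ak2, 0.19 for Adar and 0.02 for Samhd1. These 4 exclude dopamine 1 and the unnumbered blank. They thus leave out the low dopamine library and keep the low blank library, blank 3. The median over all genes was 0.02 with the block and 0.02 without it.

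The sign held under all alternatives run for 8 of the 38 genes, Mx1, Oas2, Rsad2, Dhx58, Bst2, Gbp3, Ifi27 and Cmpk2 (limma was not run for Mx1 and Oas2), and turned under at least 1 for the other 30. Signs turned for Oasl2 (-0.02), Irf9 (-0.01) and Zbp1 (-0.06) with total counts, Xaf1 (0.02) and Zbp1 (-0.25) with limma, Zbp1 (-0.01) with DESeq2's size factors in edgeR, Zbp1 (-0.01) with no filter and Zbp1 (-0.02) with DESeq2. With 1 library left out at a time, log2 fold changes ran from -0.47 to 1.78 for Ifit1, -0.20 to 0.46 for Ifit2, -0.04 to 1.89 for Ifit3, -0.93 to 1.19 for Isg15, -0.27 to 1.10 for Mx2, -0.70 to 0.60 for Oasl2, -0.18 to 0.44 for Irf1, -0.63 to 0.67 for Irf7, -0.32 to 0.37 for Irf9, -0.53 to 0.31 for Stat2, -0.53 to 0.67 for Usp18, -0.24 to 0.44 for Ifih1, -0.52 to 0.45 for Xaf1, -0.07 to 1.44 for Gbp2, -0.37 to 0.73 for Gbp7, -0.34 to 2.10 for Igtp, -1.28 to 0.24 for Irgm1, -0.08 to 3.11 for Iigp1, -1.60 to 0.49 for Ifi44, -0.11 to 0.51 for Ifi35, -0.51 to 0.07 for Trim25, -0.85 to 0.29 for Parp9, -0.89 to 0.27 for Parp14, -0.84 to 0.01 for Dtx3l, -0.61 to 0.65 for Rtp4, -0.89 to 0.72 for Zbp1, -0.45 to 0.01 for Eif2ak2, -0.22 to 0.09 for Adar and -0.10 to 0.09 for Samhd1. The cause of the other changes was not tested.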

Other observations

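Tap1, a subunit of the interferon-induced transporter that carries peptides to MHC class I, stood apart in dopamine 1. Its deposited count there was 3322, or 190.4 CPM, against 68.3 and 79.5 CPM in dopamine 2 and 3 and 63.1, 35.0 and 55.2 CPM in blank 2, blank 3 and the unnumbered blank. Its deposited FPKM in dopamine 1 was 15.51, which corresponds to 1424 counts on the scale of that column. The library total implied by the other FPKM values of dopamine 1 was 3000 counts below the sum of its deposited counts, and Tap1 was the 1 gene whose value did not match that total within 0.006 FPKM. A count lower by 3000 would be 322, or 18.5 CPM. All 39 interferon response genes matched the implied total in dopamine 1.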
